A study of Rattus norvegicus with 120 samples.

Results

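The comparison set the 30 rat eyes with the lowest level of Nqo2, a quinone reductase gene, against the 30 with the highest, out of 120 eye samples in the series. Each sample was RNA from both eyes of a male rat aged 12 weeks, hybridised to 1 Affymetrix array. All animals, low and high alike, were F2 offspring of SR/JrHsd crossed with SHRSP, the stroke-prone spontaneously hypertensive rat. The labels gave no treatment and placed all animals in 1 group, and genotypes were not used here. The study measured expression in an intercross, in which each animal carries its own mixture of the parental genomes. The groups were chosen from the values of the only Nqo2 probe set on the array: the mean of each S code, a number in the sample titles that the labels do not explain, was subtracted and the overall mean added back. The 60 remaining animals are called the middle animals.

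Nqo2 encodes a flavoprotein that reduces quinones with dihydronicotinamide riboside as electron donor and that also binds melatonin, unlike its better known relative Nqo1, which uses NADH or NADPH. In an F2 intercross long stretches of a chromosome are inherited together, so animals picked for the level of 1 gene under local genetic control also tend to differ in the parental origin of the genes around it. Whole eye RNA holds retina, lens, cornea, pigmented tissue and any muscle left on the globe.

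In RefSeq's GRCr8 annotation of the rat, Nqo2 lies on chromosome 17 inside the annotated span of Serpinb6a, an intracellular inhibitor of serine proteases, on the opposite strand. Next to them lie Ripk1, a kinase of cell death signalling, and Bphl, a serine hydrolase that activates the prodrug valacyclovir. The 250 bases before the start of Nqo2, Serpinb6a (the first of its 2 annotated starts) and Bphl are shown because Nqo2 chose the groups and the other 2 had the smallest p among the genes nearest to it. Capitals mark GC boxes (GGGCGG on either strand) and the core of the antioxidant response element (TGACNNNGC on either strand), which did not overlap each other. All 3 sequences are RefSeq's and come from the GRCr8 build.
Nqo2, chr17:31143663-31143912, minus strand: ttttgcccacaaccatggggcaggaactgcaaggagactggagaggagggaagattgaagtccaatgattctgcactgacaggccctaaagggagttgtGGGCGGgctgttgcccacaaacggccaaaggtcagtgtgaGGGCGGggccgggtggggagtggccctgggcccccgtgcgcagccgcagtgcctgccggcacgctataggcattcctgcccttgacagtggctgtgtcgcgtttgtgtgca
Serpinb6a, chr17:31076561-31076810, plus strand: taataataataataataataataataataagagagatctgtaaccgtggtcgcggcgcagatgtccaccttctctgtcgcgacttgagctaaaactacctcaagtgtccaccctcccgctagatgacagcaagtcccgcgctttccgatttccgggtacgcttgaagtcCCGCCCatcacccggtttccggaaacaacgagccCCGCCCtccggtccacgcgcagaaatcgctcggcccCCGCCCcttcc
Bphl, chr17:31042576-31042825, minus strand: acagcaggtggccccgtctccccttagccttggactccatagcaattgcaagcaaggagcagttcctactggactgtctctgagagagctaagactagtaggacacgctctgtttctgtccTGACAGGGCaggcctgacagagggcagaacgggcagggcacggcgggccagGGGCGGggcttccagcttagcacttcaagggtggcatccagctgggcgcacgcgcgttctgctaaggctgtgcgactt
The window held 2 GC boxes for Nqo2, 3 for Serpinb6a and 1 for Bphl, and the antioxidant core occurred once in them, in Bphl. The window before the second start of Serpinb6a, not printed, held 2 GC boxes and 1 antioxidant core. Of 33469 rat promoters of the same length, 30.5% held a GC box and 10.1% the antioxidant core. The letters are a description of the windows and not a record of binding.

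Nqo2 levels, after removal of the S code means, ran from 4.63 to 7.07 on the log2 scale over the 120 animals (SD 0.58). The low animals had a lowest level of 4.63, a median of 5.15 and a highest level of 5.48, against 6.46, 6.64 and 7.07 in the high animals. Middle animals lay between 5.52 and 6.45, with a median of 6.06. The means were 5.14 ± 0.22 in low and 6.65 ± 0.17 in high animals (SD, n = 30 each), a difference of -1.51, or 2.84-fold, which is what the selection made and carries no test. The levels had no gap at either edge of the groups: the highest low animal stood at 5.48 and the lowest middle animal at 5.52, while the highest middle animal stood at 6.45 and the lowest high animal at 6.46.

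**Figure D1:**
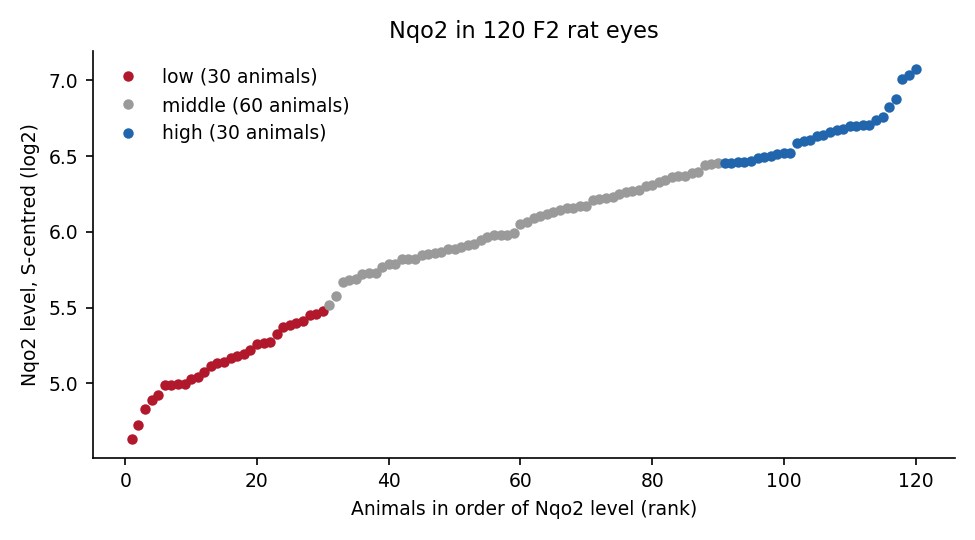
Each point is 1 animal, with its rank on the x axis and its Nqo2 level after removal of the S code means on the y axis (log2). The 30 low animals reach up to 5.48, the 60 middle animals fill the range from 5.52 to 6.45, and the 30 high animals begin at 6.46, without a break between groups.

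Both groups held animals of all 10 S codes. Of the 22 L codes, a second code of the titles that is also unexplained, 15 held a low animal, 17 held a high animal and 13 held both, with at most 4 animals of a group in 1 code. The 3 arrays that the titles mark as scanned again were all in the low group. Actin 3' to 5' differences, which grow as RNA degrades, averaged 1.16 ± 0.12 in low and 1.23 ± 0.16 in high animals (log2, SD, n = 30 each; two-sided permutation test within S codes, p = 0.0875, adjusted p = 0.117 over 4 measures). For GAPDH they averaged 0.167 ± 0.083 in low and 0.212 ± 0.095 in high animals (p = 0.0745, adjusted p = 0.117). The 75th percentile of the array, a measure of the whole distribution, averaged 7.53 in low and 7.56 in high animals (p = 0.0421, adjusted p = 0.117). None of the 4 measures passed after adjustment, and the fourth, the array median, had p = 0.641. With the 3' to 5' differences as covariates the comparison of low with high animals gave 38 called probe sets, 37 of them among the 48 described below, with 26 genes of chromosome 17 and 2 elsewhere.

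Low and high animals differed mainly in genes of chromosome 17, the chromosome that carries Nqo2. Over 23325 probe sets, 48 passed limma's test at 0.05 after Benjamini-Hochberg adjustment, with S code as a covariate (0.206% of those tested), of which 36 were lower in low animals (0.154%) and 12 higher (0.0514%). They stood for 33 named genes, 0.268% of the 12325 genes tested, besides 9 probe sets with no gene symbol and 1 with several. On chromosome 17, 28 of 337 measured genes were called (8.31%), 23 lower and 5 higher in low animals. On all other chromosomes 5 of 11945 were called (0.0419%), and all 5 were lower in low animals. At an unadjusted p of 0.05, 2304 probe sets (9.88%) passed over the whole array, and 25.7% of the probe sets of chromosome 17. The contrast between chromosomes depended on the size of the groups. With the 40 lowest and 40 highest animals 84 of the 337 genes of chromosome 17 were called. Elsewhere 1276 were called, out of 11945 genes on other chromosomes and 43 with none assigned. The share was smaller elsewhere than on chromosome 17 in that comparison too. A slope over all 120 animals called 145 genes of chromosome 17 and 3134 elsewhere. With L code added to the fit, 16 genes of chromosome 17 and 0 elsewhere were called in limma, where 1878 genes elsewhere had an unadjusted p below 0.05.

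**Figure D2:**
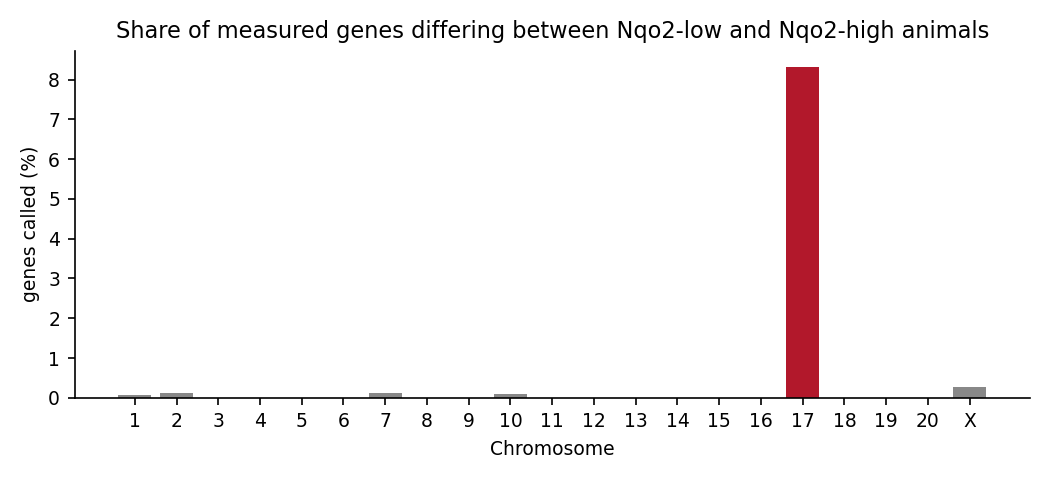
Bars give the percentage of measured genes on each rat chromosome with at least 1 probe set past an adjusted p of 0.05 between low and high animals. Chromosome 17 stands at 8.31%, and the next, chromosome X, at 0.283%, where 1 gene was called.

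Immediately beside Nqo2, Serpinb6a fell and Bphl rose in low animals. Serpinb6a had a lowest level of 7.75, a median of 8.02 and a highest of 8.19 in low animals, against 8.22, 8.39 and 8.57 in high animals, a difference of -0.38 ± 0.028 (SE; limma, adjusted p = 2.2e-15). These groups did not overlap, and of all probe sets tested no other had groups without overlap (1 of 23325, 0.00429%). Bphl had 6.30, 7.32 and 7.55 in low animals, against 6.13, 6.45 and 7.36 in high animals, a difference of 0.81 ± 0.069 (limma, adjusted p = 1.0e-12). The Bphl groups overlapped, because a few animals of either group stood among the other. Of the 30 animals lowest for Serpinb6a, 23 were low animals and 0 were high animals. Of the 30 animals highest for Bphl, 23 were low animals and 1 was a high animal. Serpinb6a is known to follow Nqo2 from earlier results of these same animals, so its difference is not independent of the choice of Nqo2.

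Genes next to Nqo2 did not all differ between the groups. In the order of measured genes, counted with negative numbers on the Bphl side, Serpinb6a stood at position -1, Ripk1 at -2, Bphl at -3, the beta tubulin genes Tubb2a and Tubb2b at -4 and -5, Psmg4 at -6 and Slc22a23 at -7. Psmg4, a chaperone of proteasome assembly, had 8.09, 8.52 and 8.67 in low animals, against 8.56, 8.76 and 9.0 in high animals, a difference of -0.24 ± 0.031 (limma, adjusted p = 8.0e-07). Slc22a23, a member of the organic ion transporter family, differed by -0.30 ± 0.051 (limma, adjusted p = 3.1e-04). Both genes were lower in low animals, and their groups overlapped. Between them and Nqo2, Ripk1, Tubb2a and Tubb2b differed by -0.03, 0.01 and -0.01, and none passed the test. On the other side the serpin genes Serpinb9 and Serpinb6b stood at positions 1 and 2. Serpinb6b was lower in low animals by 0.18 (difference -0.18 ± 0.037, limma, adjusted p = 0.0074), and did not pass with L code in the fit (adjusted p = 0.338). Its mean of 4.282 in low animals was below the level of 4.283 that a probe set's overall mean had to reach to be tested. In high animals its mean was 4.452, so its signal was near the floor. For Serpinb9, an inhibitor of granzyme B, the difference was 0.20 ± 0.056 (limma, adjusted p = 0.192) on the probe set of smaller p, 1 of 2 tested. On the other, which has the higher mean, the difference was not above 0.088. Without animals 63 and 15, whose arrays were least like the rest, the Serpinb9 probe set of smaller p passed in limma, with a difference of 0.23 and an adjusted p of 0.0044.

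Farther out, the largest fall belonged to Gcnt2 at position -30, the branching enzyme of I blood group glycans, whose loss in people causes cataract. Gcnt2 had a lowest level of 5.75, a median of 6.25 and a highest of 7.36 in low animals, against 6.91, 7.43 and 7.98 in high animals, a difference of -1.10 ± 0.093 or 2.15-fold (limma, adjusted p = 1.0e-12). Most low animals lay below all high animals, and the overlap came from a few low animals. Bmp6, a bone morphogenetic protein, lies at position -24 and was lower on 2 of its 4 probe sets, by -0.30 ± 0.034 (limma, adjusted p = 9.0e-09) and -0.39 ± 0.058 (adjusted p = 2.2e-05). Its other probe sets differed by 0.09 and 0.10 without passing the test.

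Txndc5, a disulfide isomerase of the endoplasmic reticulum at position -25, was higher in low animals, with 8.05, 8.63 and 8.80, against 7.92, 8.31 and 8.57 in high animals (difference 0.31 ± 0.041, limma, adjusted p = 1.0e-06). Riok1, a kinase of small ribosomal subunit maturation at position -21, was lower, with 5.96, 6.51 and 7.02 in low animals, against 6.53, 6.96 and 7.15 in high animals (difference -0.43 ± 0.058, limma, adjusted p = 1.6e-06). Snrnp48 of the minor spliceosome, at position -23, differed by -0.31 ± 0.062 on 1 of 2 probe sets and by 0.08 on the other, which did not pass. These 3 neighbours therefore moved in both directions within a few gene positions. On the other side of Nqo2, Aldh5a1, the succinate semialdehyde dehydrogenase of GABA breakdown, was lower on 1 of 3 probe sets, with 4.51, 4.76 and 4.94 in low animals, against 4.80, 4.98 and 5.31 in high animals (difference -0.24 ± 0.031, limma, adjusted p = 1.1e-06). Carmil1, a regulator of actin filament capping, was lower by -0.38 ± 0.067 on 1 of 3 probe sets (limma, adjusted p = 7.4e-04). Aldh5a1 and Carmil1 lie at positions 22 and 28.

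Called genes were also found well away from Nqo2. The histone gene H4cl1, at position 32, had 3.996, 4.429 and 4.628 in low animals, against 4.344, 4.997 and 5.574 in high animals, a difference of -0.65 ± 0.067 (limma, adjusted p = 1.1e-09). Its mean of 4.36 in low animals stood near the filter level of 4.283. Histone genes are close copies of each other, so the source of this signal is uncertain. Arid4b, a chromatin protein at position 59, was higher in low animals, with 7.269, 8.128 and 8.481, against 7.095, 7.668 and 8.323 in high animals (difference 0.52 ± 0.068, limma, adjusted p = 1.1e-06). Its neighbour Ggps1, a geranylgeranyl diphosphate synthase, was higher by 0.21 ± 0.042 on 1 of 3 probe sets.

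On the other arm of the order, the small proteoglycan gene Omd at position -73 had 6.43, 7.04 and 7.69 in low animals, against 7.07, 7.54 and 7.86 in high animals (difference -0.43 ± 0.066, limma, adjusted p = 4.3e-05). Ecm2, a matrix gene close to it, was lower by -0.23 ± 0.045. The actin regulator Cap2 at position -53 was lower on all 3 of its probe sets, by -0.24, -0.19 and -0.17, and these passed in 24, 13 and 16 of 26 alternatives at the 0.05 threshold. The last did not pass without the rescanned arrays (adjusted p = 0.0508). LOC102554214, a gene with no assigned function at position 64, was lower by -0.31 ± 0.044 (limma, adjusted p = 7.0e-06).

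Around position 100, a pair of related aldo-keto reductases of steroid metabolism moved in opposite directions. Akr1c14 was lower on all 3 of its probe sets, by -0.39, -0.30 and -0.22, and on the first it had 3.79, 4.75 and 5.32 in low animals, against 4.62, 5.11 and 5.64 in high animals. The third did not pass without the rescanned arrays (limma, adjusted p = 0.0585), and none of the 3 passed with no S code in the fit (adjusted p between 0.264 and 0.290). Akr1c3 had 4.85, 5.84 and 6.56 in low animals, against 4.37, 5.18 and 6.49 in high animals, a difference of 0.62 ± 0.13 (limma, adjusted p = 0.0101). With L code in the fit neither gene passed (limma, adjusted p between 0.0809 and 0.232 for Akr1c14, and 0.310 for Akr1c3). Probe sets of such close relatives may bind more than 1 of them, so the split between the genes is uncertain.

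Klf6, a zinc finger transcription factor at position 95, showed the second largest fall but a wide spread. It had 5.45, 6.58 and 8.15 in low animals, against 5.82, 7.75 and 9.32 in high animals, a difference of -0.98 ± 0.22 (limma, adjusted p = 0.0220). Its groups overlapped over most of their range, only 1 of its 3 probe sets was called, and within S codes the difference ran from -2.43 to 0.54, negative in 8 of 10. Its call was lost without any 1 of S codes 1 to 4, with adjusted p up to 0.265. Golm1, a Golgi membrane protein gene, was the called gene farthest from Nqo2 on the Bphl side, at position -146 (difference -0.56 ± 0.13, limma, adjusted p = 0.0336, 1 of 2 probe sets). The other Golm1 probe set, of higher signal, differed by -0.06 without passing. Apbb1ip, an integrin adaptor of leukocytes, was the called gene farthest on the other side, at position 166 (-0.31 ± 0.064, limma, adjusted p = 0.0106). It passed in 18 of 25 alternatives, with an adjusted p of 0.824 when groups were formed without removal of S code means. Cul2 (-0.15), Ankrd16 (-0.27), Prkcq (-0.25) and the macrophage mannose receptor gene Mrc1 (-0.33) were the remaining called genes of the chromosome. Of these, Cul2 did not pass without animals 63 and 15 (adjusted p = 0.0550). With the 3' to 5' differences as covariates Golm1, Mrc1 and Cul2 did not pass (adjusted p = 0.0533, 0.0533 and 0.137).

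Counted over both sides together, the share of called genes was highest close to Nqo2. Of the 20 measured genes within 10 positions, 5 were called (25%), and of the 40 at positions 11 to 30, 7 (17.5%). The share was 6.67% over the 60 genes at 31 to 60, 8.75% over the 80 at 61 to 100 and 3.65% over the 137 beyond 100, which reach to position 173. Each of these shares was above the 0.268% found over all genes. The peak near Nqo2 lay on the Bphl side, where 4 of 10, 5 of 20, 1 of 30, 2 of 40 and 1 of 64 genes were called. On the other side the counts in the same order were 1 of 10, 2 of 20, 3 of 30, 5 of 40 and 4 of 73, without such a peak. The positions count measured genes and are not physical distances.

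**Figure D3:**
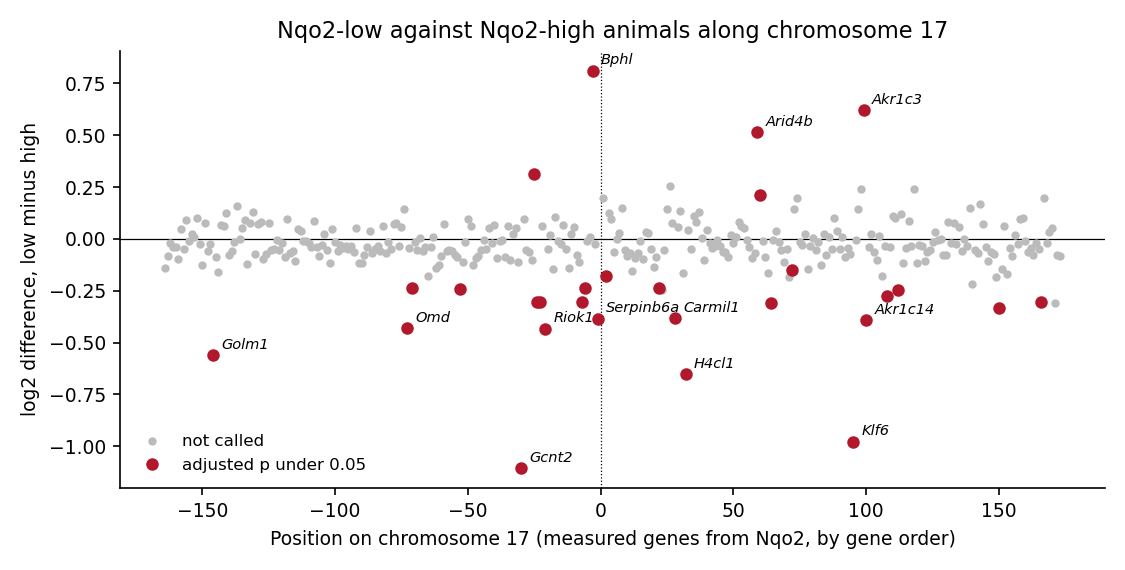
Each point is 1 measured gene of chromosome 17, with its position from Nqo2 in gene order on the x axis and its log2 difference, low minus high, on the y axis (the probe set of smallest p). The 28 called genes lie on both sides of Nqo2, from Golm1 at -146 to Apbb1ip at 166, and Gcnt2 has the lowest value at -1.10 and Bphl the highest at 0.81.

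Across the 48 called probe sets, the median of the middle animals lay between the medians of the low and high animals in all 48. Within S codes the difference had the same sign in all 10 for 27 of them and in at least 9 for 44. These probe sets were called from the same animals, so the counts of signs are a description and no further support. S code 6 held 1 low and 1 high animal, S code 7 held 1 high animal and S code 9 held 1 low animal. Genes with several tested probe sets often disagreed: of 12 such called genes, 2 had all probe sets called (Cap2 and Akr1c14) and 10 only some. Probes matched better by one parental strain's transcript than by the other's can give an apparent difference, and the 21 called genes with 1 tested probe set offer no second reading. The genes whose level correlated most with Nqo2 over the 120 animals, given as a description, were Serpinb6a (r = 0.828), Gcnt2 (r = 0.752), Bphl (r = -0.703), Psmg4 (r = 0.678) and LOC102554214 (r = 0.647). These points share arrays and S codes. The smallest p of all belonged to a probe set with no gene symbol, singled out here after its values were seen. It had 6.02, 6.96 and 7.57 in low animals, against 3.68, 4.55 and 6.53 in high animals, a difference of 2.30 ± 0.14 (limma, adjusted p = 8.6e-18).

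Outside chromosome 17 the called genes were few, and several are known from muscle. Cox8b, the cytochrome c oxidase subunit of heart and skeletal muscle, had 8.6, 8.9 and 9.3 in low animals, against 8.9, 9.2 and 9.5 in high animals (difference -0.23 ± 0.047, limma, adjusted p = 0.0059). Slc2a4, the insulin-responsive glucose transporter GLUT4, had 6.25, 6.53 and 7.02 in low animals, against 6.41, 6.77 and 7.15 in high animals (difference -0.25 ± 0.050, limma, adjusted p = 0.0067, 1 of 2 probe sets). Pvalb, the calcium buffer of fast muscle fibres and some neurons, had 10.001, 10.281 and 10.627 in low animals, against 10.171, 10.483 and 10.741 in high animals (difference -0.19 ± 0.042, limma, adjusted p = 0.0291). Groups overlapped for all of them, and without S code 3 none of the 3 passed (adjusted p = 0.179 for Cox8b, 0.0521 for Slc2a4 and 0.294 for Pvalb). Hjv, the iron regulator hemojuvelin made in liver and muscle, differed by -0.23 (limma, adjusted p = 0.0449) and Amot, an angiostatin binding protein gene, by -0.20 (adjusted p = 0.0423, 1 of 2 probe sets). Without animals 63 and 15 neither passed (adjusted p = 0.0670 and 0.0612), and without the 3 rescanned arrays Amot did not (0.0565). With L code in the fit none of the 5 genes passed (limma, adjusted p between 0.231 and 0.380), and with the 3' to 5' differences as covariates Pvalb, Hjv and Amot did not (0.05001, 0.1482 and 0.1317).

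All 14 skeletal muscle genes of a list were lower in low animals in their fitted differences, with a median of -0.15, beside a median of -0.03 over all 12325 genes, of which 73.4% were negative. Pvalb passed the test, and 11 of the 14 had an unadjusted p below 0.05, beside 1238 of all 12325 genes that were lower at that level. The members ran from the calcium release channel gene Ryr1 (-0.28 ± 0.072, limma, adjusted p = 0.105) to Tpm2 (-0.03 ± 0.033). The calcium pump gene Atp2a1 differed by -0.17, the troponins Tnnt3 and Tnni2 by -0.16 each and creatine kinase Ckm by -0.15. The mean log2 level over the list's genes had 9.80, 10.07 and 10.45 in low animals, against 9.98, 10.25 and 10.51 in high animals, so the groups overlapped widely. In whole eyes fewer muscle cells and less RNA per cell cannot be told apart. With L code added to the fit, 5 of the 14 had an unadjusted p below 0.05, and 7 did with 5 principal components.

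**Figure D4:**
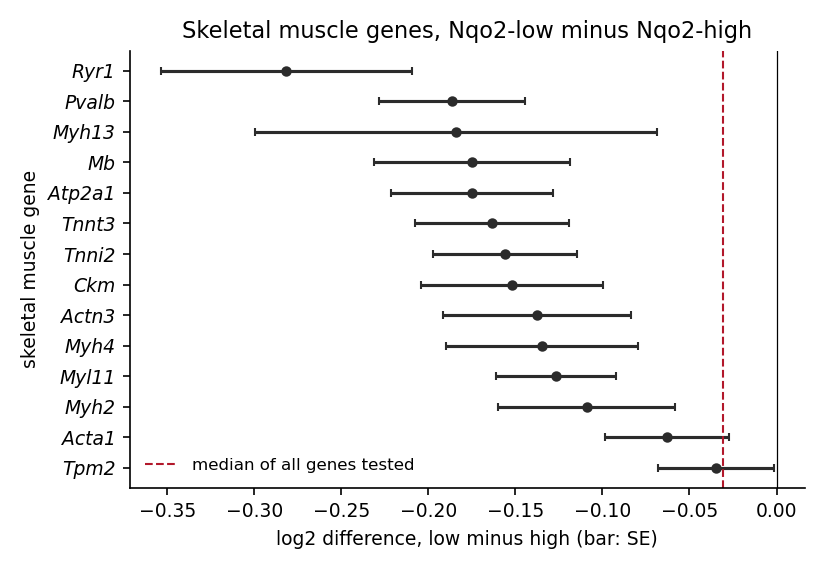
Points give the log2 difference, low minus high, of the 14 skeletal muscle genes, with bars of 1 SE, and the dashed line marks the median of all genes tested. All 14 lie below 0, from -0.28 for Ryr1 to -0.03 for Tpm2, and Pvalb alone among them passed the adjusted test.

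Lists of genes related to Nqo2 by function held no called gene, which at 0.268% called over all genes is near the background for lists of this size. They leave out Akr1c14 and Akr1c3, described above, which also reduce carbonyls. None of 15 listed and tested genes of quinone and carbonyl reduction was called (median difference -0.02), and Nqo1 differed by -0.02 ± 0.068 (limma, adjusted p = 0.885). None of 23 tested target genes and regulators of NRF2, the transcription factor of the antioxidant response, was called (median -0.03), with 3 lower and 1 higher at an unadjusted p of 0.05, beside 1238 lower and 168 higher of all 12325 genes. The lowest of them was Gclm, a subunit of glutathione synthesis, at -0.19 ± 0.072 (limma, adjusted p = 0.420). The same held for 16 oxidative stress genes (median -0.03), 13 genes of nicotinamide cofactor metabolism (median -0.04) and 3 genes of the melatonin system (median 0.03), of which none was called. Of 6 tested clade B serpins, the family of Serpinb6a, 2 were called, Serpinb6a and Serpinb6b, both lower, the latter near the filter level.

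Lists of eye and immune cells held no called gene. Their counts stand beside 9052 negative differences and 1238 genes lower at an unadjusted p below 0.05 among all 12325. Rod photoreceptor genes had a median difference of 0.02 (2 of 13 negative), lens genes -0.0039 and retinal neuron genes -0.07 (10 of 11 negative). Interferon response genes were negative for all 11 tested, with a median of -0.24 and 3 at an unadjusted p below 0.05, among them Ifit2 (-0.33 ± 0.093, limma, adjusted p = 0.174). Their mean log2 level spread widely, with 6.66, 7.21 and 9.27 in low animals, against 6.91, 7.40 and 9.41 in high animals. With L code in the fit the interferon median was -0.04, with 1 gene at an unadjusted p below 0.05. Microglia and macrophage genes were negative for 8 of 9 (median -0.11), with 4 at an unadjusted p below 0.05. With L code in the fit, or with groups formed without removal of S code means, 0 of these 9 were lower at an unadjusted p below 0.05 in limma. Gfap, the glial stress marker, differed by -0.46 ± 0.14 without passing (limma, adjusted p = 0.297).

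The 60 middle animals, which the comparison had not used, gave a second reading as a slope on the Nqo2 level. Of the 33 called probe sets of chromosome 17, 27 had a slope in the same direction as the group difference, 18 of them with an unadjusted p below 0.05. All 18 slopes were positive, the direction of most slopes that passed in this fit. Serpinb6a had a slope of 0.30 ± 0.078 per log2 unit of Nqo2 (limma, adjusted p = 0.0040) and H4cl1 one of 0.67 ± 0.21 (adjusted p = 0.0133). The slope of Gcnt2 was 0.48 ± 0.21 (limma, adjusted p = 0.0684), that of Bphl -0.15 ± 0.14 (adjusted p = 0.413) and that of Klf6 0.17 ± 0.40 (adjusted p = 0.776). None of the 5 chromosome 17 genes higher in low animals had an unadjusted p below 0.05 in this limma fit. Txndc5, Ggps1 and Akr1c3 had slopes of 0.013, 0.061 and 0.028, against the group difference, and Arid4b had -0.033. Golm1 (-0.097), Aldh5a1 (-0.030) and a probe set of Cap2 (-0.156) also ran against the group difference. The background of this fit was high: 6799 probe sets passed (29.1%), 18.8% of all with a positive slope, and 42.5% had an unadjusted p below 0.05, so the count on chromosome 17 has to be read against that share. In these animals the Nqo2 level moved with the 75th percentile of the array (r = 0.488, rho = 0.463, given as a description, n = 60). It also moved with the actin 3' to 5' difference (r = 0.330, permutation p = 0.0097, adjusted p = 0.0193; rho = 0.316, adjusted p = 0.0286; r = 0.393 without the 2 farthest animals, n = 60).

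With the 75th percentile as a covariate no probe set followed Nqo2 in the middle animals after adjustment in limma, and 2378 (10.2%) had an unadjusted p below 0.05. On chromosome 17, 30 of the 33 then had the direction of the group difference, 11 with an unadjusted p below 0.05. With the 3' to 5' differences as covariates 2294 probe sets (9.83%) followed Nqo2 after adjustment, and 6534 (28%) had an unadjusted p below 0.05. On chromosome 17 the counts were then 30 with the direction of the group difference and 18 with an unadjusted p below 0.05. The 18 of 33 have to be read against the 28%. In that fit the slope of Bphl was -0.37 (limma, adjusted p = 0.0469) and that of Serpinb6a 0.27 (adjusted p = 0.0350).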

How the data were processed

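TRIzol extraction, RNeasy purification and one-cycle labelling preceded hybridisation, per the labels' protocols. The values deposited by the authors are log2 levels from RMA (robust multi-array averaging), as the submitters' processing notes state, and its version is not given in the sources used here. RMA evens out the arrays' distributions, which can hide a shift common to most genes. Array medians lay between 5.77 and 5.95 and 75th percentiles between 7.11 and 7.70. Precision is limited by the number of arrays. The p-values measure the spread between animals together with the error of single arrays. No 2 arrays were alike enough to be 1 sample (smallest SD of their difference 0.173).

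Of 31042 probe sets besides controls, 20826 had 1 symbol in the platform annotation, 436 several and 9780 none. Symbols were updated by Entrez number with RefSeq's table of GRCr8, which matched 20758 and gave the order of genes. Probe sets whose mean reached the 25th percentile of all values (4.283) were tested with limma 3.58.1 in R 4.3.3, with S code as covariate and Benjamini-Hochberg adjustment at 0.05. Genes in lists were read from the probe set of highest mean, and positions and counts by gene from that of smallest p. RNA measures were compared between low and high animals by 100000 permutations within S codes. Their correlations with Nqo2 in the middle animals were tested by 100000 permutations over all 60 animals, not within S codes. On simulated data with 30 animals against 30 and 23325 probe sets, 43% of shifts of 1 residual SD and 100% of shifts of 2 were recovered. The simulated noise was drawn independently for each probe set. These rates therefore do not cover variation that many probe sets of an array share. The alternatives are other group sizes, covariates, filters, scalings and left out arrays or S codes.

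The members, the 29 gene lists and the tests were chosen with earlier results of these data known. Genes named are the 15 largest differences each way among called genes, the called genes within 30 positions of Nqo2, all probe sets of Nqo2, Serpinb6a and Bphl, the called members of each list with up to 2 others, and the 5 genes most correlated with Nqo2. The other called genes, the uncalled neighbours, the further list members and the unnamed probe set were added after their values were seen.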

Additional observations from a re-analysis of the deposited data

How the results depend on the processing

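The count of 48 called probe sets depended most on which animals entered. With the 40 lowest and 40 highest animals 1931 were called (1469 lower, 462 higher, 84 genes of chromosome 17 and 1276 elsewhere). A slope over all 120 animals gave 4797 (3725 lower, 1072 higher). They stood for 145 of the 337 genes of chromosome 17 and 3134 elsewhere, out of 11945 on other chromosomes and 43 with none assigned. The count was 31 (22 lower) with groups formed without removal of S code means. With no S code in the fit it was 31 (7 higher). It was 26 (17 lower, 16 genes of chromosome 17) with S code and L code, and 28 (20 lower) without S code 2. With 5 principal components 22 were higher in low animals, as with the 75th percentile of each array, an alternative chosen after seeing the data. With the filter raised to the 50th percentile 6 were higher and 18 genes of chromosome 17 were called. Leaving out each S code in turn gave 28 to 56 calls. None of the 48 called probe sets reversed under any alternative, and Serpinb6a, Bphl and Gcnt2 passed in all 26 at the 0.05 threshold. Pvalb passed in 12 of 26, Hjv, Amot and Cul2 in 9 of 26, Klf6 in 19, Mrc1 in 17, Slc2a4 in 20 and Cox8b in 21 of 26, Golm1 in 14, Akr1c3 in 17, Apbb1ip in 18, Serpinb6b in 21 and Ggps1 in 22 of 25. The skeletal muscle median lay between -0.19 and -0.09 over 27 alternatives, and that of the interferon genes between -0.31 and -0.04.

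Genes that did not pass turned sign near 0: Krt19 with the 20 lowest and 20 highest animals (0.0265), without removal of S code means (0.0503) and with L code (0.0162), Sparc without removal of S code means (0.0025), Tyrp1 with the 3' to 5' differences (-0.0237) and without S code 2 (-0.0093), Slc4a1 with 5 principal components (-0.0189), with the 75th percentile (-0.0277) and without S code 3 (-0.0126), and Cnp and Mitf with 5 principal components (0.0135 and 0.0225). In the middle animals 6799 probe sets followed Nqo2, against 1800 with no S code, 2294 with the 3' to 5' differences, 4436 at the 50th percentile filter, and 0 with 5 principal components or the 75th percentile, both chosen after seeing the data, where 1215 and 2378 had an unadjusted p below 0.05 in limma. With 40 animals a group the actin difference was -0.0969 (permutation p = 0.00497) and the GAPDH difference -0.0576 (p = 0.0103). The difference in the 75th percentile was -0.0137 without the rescanned arrays (p = 0.115) and -0.0158 without animals 63 and 15 (p = 0.0679). The causes of these shifts were not tested. No paired analysis was possible because all animals belong to 1 labelled group and their numbers pair no samples.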
